A study of Rattus norvegicus with 6 samples.

Results

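The receptor chains of the gp130 family were examined in cultured primary cardiomyocytes of newborn rats, the contracting cells of heart muscle, that had been kept for 24 h with human cardiotrophin 1 (hCT1). The family was taken as 7 genes (Il6st, Lifr, Osmr, Il6r, Il11ra1, Cntfr and Il31ra), and every probe set that the platform annotation pairs with exactly 1 symbol from this list was kept. This gave 6 probe sets, 1 for each of 6 genes, of 15310 probe sets with 1 symbol and 29215 in the table. Il31ra had no such probe set and was not analysed here. The cells came from the ventricles of 2-day-old Sprague-Dawley rats and were pre-plated to remove fibroblasts. Total RNA of 3 samples treated with hCT1 (0.5 nM, recombinant human protein) and 3 samples kept in control serum-free medium (Ctrl) was run on whole-transcript rat arrays from Affymetrix, with an array for each sample. The sample records name serum-free medium with a hypertrophic agonist as the growth medium of all 6 samples, controls included, which was read here as general text. Whether the triplicates came from separate cultures is not stated, so p-values reflect only the spread among these samples, part or all of which may be technical.

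Cytokines of the interleukin 6 family signal through gp130, the product of Il6st, which carries the signal into the cell but forms a working receptor with a partner chain. Cardiotrophin 1 and leukemia inhibitory factor (LIF) use gp130 with the LIF receptor (Lifr), and oncostatin M uses gp130 with the oncostatin M receptor (Osmr). Interleukin 6, interleukin 11 and ciliary neurotrophic factor first bind chains of their own (Il6r, Il11ra1 and Cntfr), which add specificity and have no kinase-bound signaling tail. The signaling chains bind Janus kinases, which activate STAT3, and Socs3 is a feedback inhibitor of gp130. In heart muscle cells this pathway is known for survival and growth signals.

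The windows around the annotated starts of the 3 chains that passed the test below are shown as a description. Each holds 250 bases before and 50 after the start, from RefSeq on build GRCr8, printed 5' to 3' on the strand of the gene, and capitals mark matches to the motifs CCAAT or GGGCGG, read on both strands. Il6st is at chr2:45809982-45810281 on the plus strand, Lifr at chr2:57963139-57963438 on the plus strand and Osmr at chr2:57688512-57688811 on the minus strand.
Il6st: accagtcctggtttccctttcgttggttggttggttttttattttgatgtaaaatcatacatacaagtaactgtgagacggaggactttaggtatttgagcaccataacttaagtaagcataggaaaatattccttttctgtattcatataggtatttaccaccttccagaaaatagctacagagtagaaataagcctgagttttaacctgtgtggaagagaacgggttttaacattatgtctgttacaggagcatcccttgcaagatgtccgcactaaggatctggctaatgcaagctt
Lifr: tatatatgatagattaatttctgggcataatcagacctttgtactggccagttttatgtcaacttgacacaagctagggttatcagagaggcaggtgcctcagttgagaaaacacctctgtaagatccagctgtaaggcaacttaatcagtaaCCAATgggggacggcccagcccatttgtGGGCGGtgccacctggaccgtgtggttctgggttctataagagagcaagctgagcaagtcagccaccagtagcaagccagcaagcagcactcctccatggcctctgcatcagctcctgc
Osmr: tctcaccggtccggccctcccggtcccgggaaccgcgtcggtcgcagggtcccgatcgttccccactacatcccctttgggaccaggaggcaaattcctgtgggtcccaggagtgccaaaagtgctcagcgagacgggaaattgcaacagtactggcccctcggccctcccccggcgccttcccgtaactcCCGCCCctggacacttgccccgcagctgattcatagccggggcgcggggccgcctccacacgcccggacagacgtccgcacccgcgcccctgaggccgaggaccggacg

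The STAT motif TTCNNNGAA was absent from these 3 windows and from those of Il6r and Il31ra, and it was present in 8.68% of 27457 windows of the same length. Of the 7 genes, 5 had a window, and Il11ra1 and Cntfr had none. The Osmr window was rich in G and C (69.3%, with 31 CG dinucleotides), and so was that of Il6r (68.7%, with 34). The Il6st window had 38.3% and 4 CG dinucleotides, and the Lifr window had 50% and 3, against a median of 52.3% and 7 over all windows. The motif GGGCGG occurred in the Osmr and Lifr windows and in 34.9% of all windows. The motif CCAAT occurred in the Lifr window and in 37.7% of all windows, and TATAAA, present in 14.3%, was in none of the 3. None of the 5 starts is at the first base of its gene span. They lie 11360 bases inside the span for Il6st, 11602 for Lifr, 241 for Osmr, 1496 for Il6r and 5291 for Il31ra. Other starts of these genes were not searched, and whether the starts shown are used in these cells was not tested. Lifr and Osmr are next to each other on chromosome 2 with 0 coding genes between them, and so are Il6st and Il31ra. Cntfr and Il11ra1 lie on chromosome 5 with 5 coding genes between them.

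The authors' RMA values, on the log2 scale, were used, and hCT1-treated and control samples were compared with limma over the 15310 probe sets (threshold of 0.05 on the Benjamini-Hochberg adjusted p). Of these, 762 were higher (4.98%) and 1506 lower (9.84%) with hCT1, or 14.8% in all. After another round of quantile normalization 917 were higher and 1148 lower, so the share of higher calls was 44.4% in place of 33.6%. Arrays of a group correlated at 0.997 to 0.998 and arrays of different groups at 0.994 to 0.996. Cardiomyocyte markers lay at percentiles 81.2 to 99.9 of mean signal over all 29215 probe sets, which fits the labelled cell type. Fibroblast markers lay at percentiles 59.5 to 99.3 and those of smooth muscle and pericytes at 57.8 to 99.9. The brightest of both thus lay at percentiles near those of the brightest cardiomyocyte markers. Since probe sets differ in brightness for the same amount of RNA, this does not give the share of each cell type. Endothelial markers lay at 66.2 to 72.3, epicardial at 53.2 to 72.1, macrophage and leukocyte at 22.8 to 62.9 and Schwann cell markers at 30.6 to 47.3.

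Of the 6 receptor chains, the 3 chains that carry the signal (Osmr, Lifr and Il6st) rose with hCT1, 0 fell, and the 3 ligand-binding chains (Il6r, Il11ra1 and Cntfr) did not pass the test. Over all probe sets tested, 4.98% were higher and 14.8% passed in either direction. The median log2 fold change was 0.14 over the 6 chains and -0.003 over all probe sets tested. Osmr changed most, by 1.82-fold, followed by Lifr (1.2-fold) and Il6st (1.15-fold). Under the stricter threshold of 0.01, Osmr was the 1 chain that passed. In these bulk samples a change in the number of cells of a type and a change in RNA per cell cannot be told apart, for rises and falls alike.

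**Figure D1:**
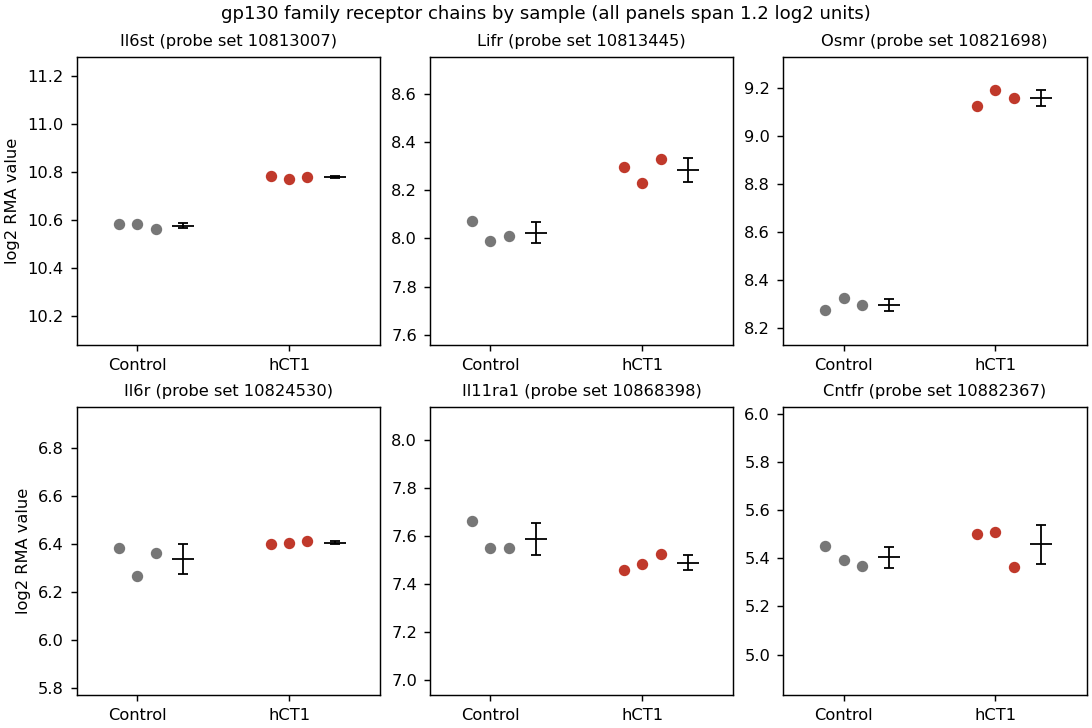
The log2 RMA value of each of the 6 receptor chain probe sets is shown as grey points for the 3 control samples and red points for the 3 hCT1-treated samples, with each point a sample, the horizontal mark the mean and the bar the SD. Every panel spans 1.2 log2 units, and the groups lie 0.8 apart for Osmr, 0.19 apart for Il6st and 0.16 apart for Lifr.

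Osmr, the partner of gp130 in the oncostatin M receptor, had log2 values of 8.28, 8.32 and 8.3 in control replicates 1 to 3 and 9.13, 9.19 and 9.16 in hCT1 replicates 1 to 3. All hCT1-treated samples lay above all control samples, and the gap between the groups (0.8) was far wider than the range within either. The mean went from 8.3 ± 0.02 in control to 9.16 ± 0.03 with hCT1 (SD, n = 3 per group), a log2 fold change of 0.86 (SE 0.05, 95% interval 0.74 to 0.98, adjusted p = 1.62e-05 from limma). As a fold this was 1.82 (95% interval 1.67 to 1.97), and Osmr ranked 62 among the rises of the 15310 probe sets. The change passed with each sample left out in turn, at 0.84 to 0.88 on the log2 scale.

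Lifr, the chain through which cardiotrophin 1 itself engages gp130, had log2 values of 8.07, 7.99 and 8.01 in control samples and 8.3, 8.23 and 8.33 in hCT1-treated samples. The groups did not overlap, with the lowest hCT1-treated sample 0.16 above the highest control sample. The mean rose from 8.02 ± 0.04 to 8.29 ± 0.05 (SD, n = 3 per group), a log2 fold change of 0.26 (SE 0.06, 95% interval 0.14 to 0.39, adjusted p = 0.0155 from limma). The rank among rises was 645. With 1 sample left out the change stayed between 0.24 and 0.29. It no longer passed limma's test without control replicate 2 (adjusted p = 0.0639), hCT1 replicate 1 (adjusted p = 0.0532) or hCT1 replicate 3 (adjusted p = 0.0552), and the adjusted p over all alternatives ran from 0.0052 to 0.0639.

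Il6st, the gene of gp130, lay at percentile 97.2 of mean signal. It had log2 values of 10.58, 10.58 and 10.56 in control samples and 10.78, 10.77 and 10.78 in hCT1-treated samples. The samples of each group were nearly the same and the groups lay 0.19 apart. The mean rose from 10.58 ± 0.01 to 10.78 ± 0.01 (SD, n = 3 per group), a log2 fold change of 0.2 (SE 0.05, 95% interval 0.09 to 0.32, adjusted p = 0.0289 from limma) or a rise of 15%. limma draws the spread of each probe set toward that of the others, so the SE was wider than the samples of Il6st alone would give, and the one-way test without this step gave an adjusted p of 0.00673. The change passed limma's test without control replicate 3 (adjusted p = 0.0441) and failed with any other sample left out. Leaving out control replicate 1 gave an adjusted p of 0.0762 and leaving out control replicate 2 gave 0.0876. Leaving out hCT1 replicate 1, 2 or 3 gave 0.0844, 0.0782 and 0.0755 (all limma, adjusted). Tested over all 29215 probe sets it was 0.0595, and the range over all alternatives was 0.00198 to 0.0876. The log2 fold change itself stayed between 0.2 and 0.22 throughout.

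Il6r, the ligand-binding chain for interleukin 6, had log2 values of 6.38, 6.27 and 6.36 in control samples and 6.4, 6.4 and 6.41 in hCT1-treated samples. The groups were apart by 0.02, less than the range of the control samples. The log2 fold change was 0.07 (95% interval -0.06 to 0.19, adjusted p = 0.453 from limma). Il11ra1, the chain for interleukin 11, had log2 values of 7.66, 7.55 and 7.55 in control samples and 7.46, 7.48 and 7.52 in hCT1-treated samples. It was the 1 chain with lower values after hCT1, by a log2 fold change of -0.1 (95% interval -0.23 to 0.03, adjusted p = 0.285 from limma), and the groups lay 0.02 apart. The gene next to it, the chemokine gene Ccl27, has an overlapping span in the RefSeq gene table and rose by 0.78 (adjusted p = 4.7e-05 from limma). How the signal of the overlap is split between the 2 probe sets was not tested.

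Cntfr, the chain for ciliary neurotrophic factor, which is held at the membrane by a lipid anchor, lay at percentile 48.9 of mean signal. It had log2 values of 5.45, 5.39 and 5.37 in control samples and 5.5, 5.51 and 5.37 in hCT1-treated samples, and the groups overlapped. The log2 fold change was 0.05 (95% interval -0.08 to 0.19, adjusted p = 0.596 from limma). The percentiles of mean signal given here are over all 29215 probe sets of the table. The filter on dim probe sets was set at percentile 40 of the 15310 with 1 symbol, which is a brighter cut. With that filter 5 of the 6 chains stayed and Cntfr did not. The groups failed to overlap for 5 of the 6 chains, which was also so for 34.3% of all probe sets. The 95% intervals of the log2 fold change reach up to 0.19 for Il6r and Cntfr and down to -0.23 for Il11ra1 on the log2 scale, so changes up to these sizes are not excluded by the 3 arrays per group.

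**Figure D2:**
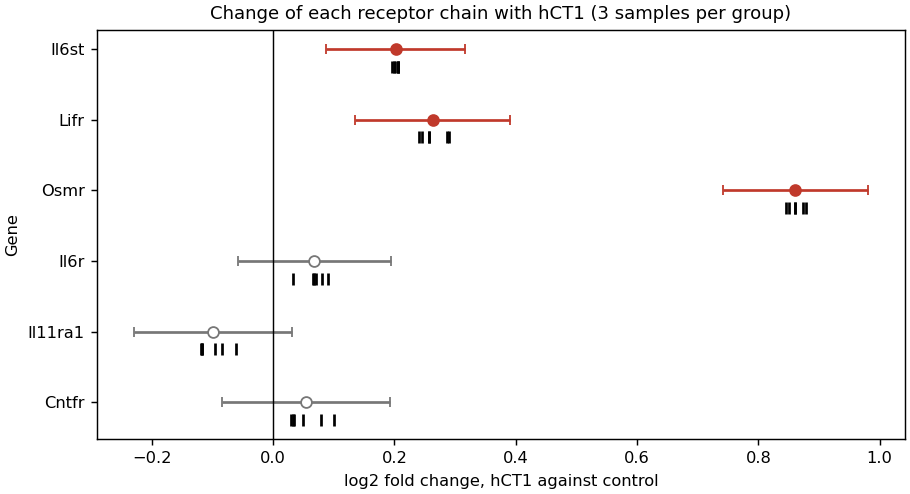
Points are log2 fold changes, hCT1 against control (3 samples each), with 95% intervals from limma, filled red where the adjusted p was under 0.05 and open grey where it was not. The black ticks under each point are the values with each of the 6 samples left out in turn, and those of Osmr stay between 0.84 and 0.88.

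The change of Osmr was larger than those of Lifr and Il6st in these samples. The difference of 2 log2 values within an array shows whether 2 chains changed unequally, though not which level is higher, since probe sets differ in brightness for the same amount of RNA. Osmr minus Lifr was 0.21, 0.34 and 0.28 in control samples and 0.83, 0.96 and 0.83 in hCT1-treated samples, a difference of 0.6 between the means, so the ratio of Osmr to Lifr signal rose 1.51-fold. Osmr minus Il6st was -2.31, -2.26 and -2.27 in control samples and -1.66, -1.58 and -1.62 in hCT1-treated samples, a difference of 0.66 between the means and a 1.58-fold ratio. In both pairs every hCT1-treated sample lay above every control sample. The exact 2-sided permutation p was 0.1 for each, the smallest that 3 samples against 3 can give, and 0.15 when adjusted over the 3 pairs compared.

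Lifr and Il6st, the chains of the receptor that cardiotrophin 1 uses, were compared in the same way. Il6st minus Lifr was 2.51, 2.6 and 2.55 in control samples and 2.49, 2.54 and 2.45 in hCT1-treated samples. The samples of the groups overlapped. The means differed by -0.06 (exact 2-sided permutation p = 0.2 with n = 3 per group, also 0.2 adjusted over the 3 pairs). After another round of quantile normalization the difference was -0.09, with an exact permutation p of 0.1, the smallest possible here.

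**Figure D3:**
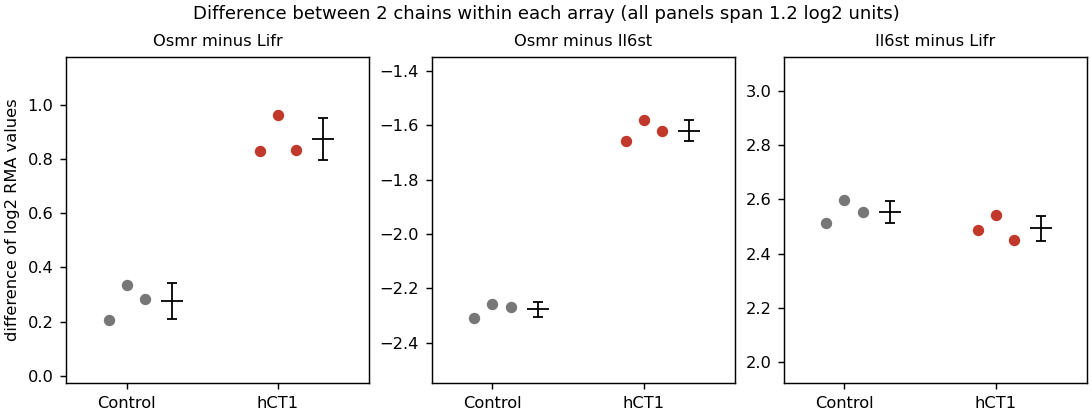
The difference between the log2 RMA values of 2 probe sets of the same array is shown in grey for the 3 control samples and in red for the 3 hCT1-treated samples, with the mean and SD in black. The group means differ by 0.6 for Osmr minus Lifr and by 0.66 for Osmr minus Il6st. The groups overlap for Il6st minus Lifr, and all panels span 1.2 log2 units.

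No measured marker on the lists for other cell types passed the test as higher with hCT1. For the counts below, the shares over all 14506 genes were 5.09% higher and 9.58% lower. Of 9 fibroblast markers 0 passed the test, with a median log2 fold change of -0.07 and a summed linear signal of 8933 to 9404 in control samples and 8466 to 8698 in hCT1-treated samples. Of 6 smooth muscle and pericyte markers 2 fell (Myh11 and Tagln), with sums of 9803 to 10121 and 9237 to 9372. Of 6 endothelial markers 1 fell (Emcn), with sums of 940.2 to 1072 and 962.3 to 988.4. Of 7 macrophage and leukocyte markers 0 passed, with sums of 243.2 to 269.5 and 222.4 to 257.7, and Ptprc, the pan-leukocyte marker, lay at percentile 22.8 of mean signal. Of 3 epicardial markers Msln fell, and of 2 Schwann cell markers 0 passed. Of 8 cardiomyocyte markers 3 fell (Tnni3, Myl2 and Myh6), with sums of 19673 to 19934 and 17841 to 18817. At an unadjusted p under 0.05 from limma, 1 fibroblast marker (Dcn) was higher and 2 (Col1a2 and Col3a1) were lower, 1 epicardial marker (Upk1b) was higher, and Aif1 of macrophages and Ryr2 of cardiomyocytes were lower. Sums on the linear scale weigh the brightest markers most, such as Col1a1 for fibroblasts and Acta2 for smooth muscle and pericytes. Whether a change in the makeup of the cultures contributes to the rise of Osmr was not tested.

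**Figure D4:**
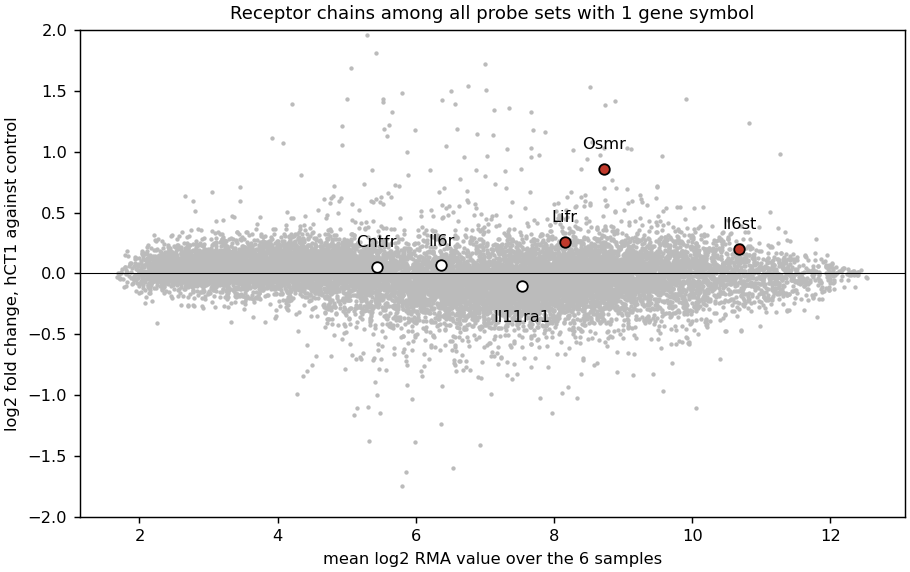
Each grey point is 1 of 15310 probe sets with 1 gene symbol, placed by its mean log2 RMA value over the 6 samples and its log2 fold change, hCT1 against control; 8 probe sets beyond -2 to 2 are not shown. The receptor chains are circled, filled red where the adjusted p was under 0.05, and Osmr lies at 0.86, rank 62 among the rises.

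Other receptor chains with the same extracellular fold (type 1 cytokine receptors) also changed in part. Of 21 measured, 4 rose and 2 fell, while 15 did not reach the threshold (median log2 fold change 0.07). Csf2rb, the shared chain for GM-CSF and interleukins 3 and 5, rose further than Osmr, by 1.33 (SE 0.08, adjusted p = 1.62e-05 from limma), from 7.05, 7.15 and 6.83 in control samples to 8.29, 8.35 and 8.36 in hCT1-treated samples. Il4r and Il13ra1, which together form a receptor for interleukins 4 and 13, rose by 0.63 (adjusted p = 0.000244) and 0.47 (adjusted p = 0.00174 from limma). Il3ra, which pairs with Csf2rb, fell by 0.36 (adjusted p = 0.018 from limma). Over all 14506 genes, each by its brightest probe set, 5.09% rose and 9.58% fell. Of 6 type 2 chains, the receptors of interferons and the interleukin 10 family, 2 rose and 4 did not pass. They were Ifngr2 (0.28) and Il10rb (0.26), and the count was 0 without hCT1 replicate 1 and 1 without control replicate 2 or hCT1 replicate 2.

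The genes that act just below the receptor were measured for 21 of 23 on the list, and 6 rose, 0 fell and 15 did not pass (median 0.05). Over all genes 5.09% rose, 9.58% fell and the median was -0.0005. Socs3 rose by 1.36, Jak2 by 0.77, Cish, another feedback inhibitor, by 0.45 and Jak3 by 0.29, and Stat3 (0.28) and Sos1 (0.23) also passed. Jak1 (0.16), the main kinase bound to gp130, and the phosphatase gene Ptpn11 (-0.03) did not pass. Of 9 ligands of the family, 2 rose and 7 did not pass (median -0.008), beside the same 5.09% of all genes that rose. Il6 rose by 0.48 (adjusted p = 0.0121 from limma) near the dim end of the scale (percentile 39.2), and Ebi3, a subunit of interleukin 27, by 0.32 (adjusted p = 0.0202 from limma). The count dropped to 1 when control replicate 1 was left out, and likewise for hCT1 replicate 1 and for hCT1 replicate 3.

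Of 9 genes of receptor shedding and turnover, 1 rose and 8 did not pass (median -0.09), a share near the 14.7% of all genes that passed in either direction. The riser was Timp3, an inhibitor of the proteases that cut receptors from the cell surface (0.37, adjusted p = 0.00268 from limma). Adam17, which sheds the interleukin 6 receptor, had a log2 fold change of 0.18 (adjusted p = 0.0768 from limma) and Bace1 had -0.14. Without control replicate 3 the count was 4 in place of 1, while the calls over all probe sets were 2683 in place of 2268.

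**Figure D5:**
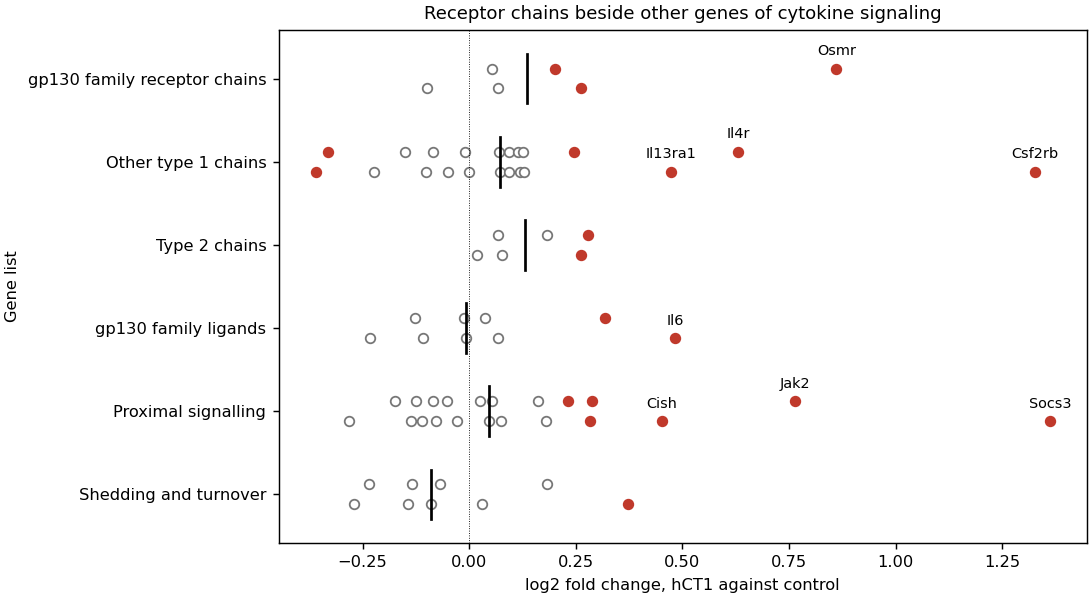
Genes are placed by their log2 fold change with hCT1 (3 samples a group) in rows for the receptor chains and for 5 lists of related genes; genes past the 0.05 threshold are red, the others are open circles, and a black line marks the median of a list. The medians lie between -0.09 and 0.14, and Csf2rb (1.33) and Socs3 (1.36) lie beyond Osmr (0.86).

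The probe sets whose log2 values ran most like those of each risen chain over the 6 samples are given as a description, since the samples form 2 groups and any gene with a wide gap and little spread ranks high. For Osmr these were Reg1a (r = 0.999, log2 fold change 2.99), the matrix protein gene Tgfbi (r = 0.999, 1.42) and the activin receptor gene Acvr1b (r = 0.998, 0.65). For Il6st they were Thbd, the gene of thrombomodulin (r = 0.9998, 1.22), Prss46 (r = 0.999, 0.52) and Ksr1, a scaffold of the ERK pathway (r = 0.999, 0.59). For Lifr they were the kinase gene Dclk1 (r = 0.999, 0.29), Defa9 (r = 0.997, 0.16, adjusted p = 0.0745 from limma) and the muscle transcription factor gene Myf6 (r = 0.993, 0.36). Defa9 and Myf6 were dim, at percentiles 12.1 and 26.9 of mean signal, and Reg1a lay at percentile 40.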

How the data were processed

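Total RNA of 6 samples (3 hCT1, 3 control) was hybridised to Affymetrix arrays. The deposited values are log2 values, which the authors made with RMA in Affymetrix Expression Console according to the submitters' processing notes, without versions. RMA corrects background, normalizes quantiles between arrays and summarises each probe set. The values were used as deposited, without a filter. The table gives no detection calls, and the number of arrays limits the precision.

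Of 29215 probe sets, 15310 had 1 gene symbol, 323 had several and were not named, and 13582 had none. Entrez identifiers matched 15279 of the 15310 to RefSeq (GRCr8). The genome build behind the probe sets was not given in the sources used here. limma 3.58.1 in R 4.3.3 (lmFit, eBayes, 2-sided) was fitted to all 6 samples, with Benjamini-Hochberg adjustment over the 15310 and a threshold of 0.05, after a test on simulated data. Chains were compared by exact permutation over samples. In lists, the brightest probe set stood for a gene, which left 14506 genes. Lists were described by counts and medians. Named from each were the 4 largest changes that passed (the largest 2 where none did), and genes named beyond these were chosen after their values were seen. For each risen chain the 3 probe sets with the highest Pearson r were named. The members and lists were chosen with earlier results of these data known. The numbers of the replicates were checked as pairs by the correlation of deviations from group means. Alternatives were other tests, a filter at percentile 40 of mean signal over the 15310 probe sets, and all probe sets. Others were other normalizations, a stricter threshold, a replicate block, averaged probe sets and each sample left out.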

Additional observations from a re-analysis of the deposited data

How the results depend on the processing

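No receptor chain changed direction under any alternative run. Osmr passed under all 17. Il6st passed under 9 of 17 and Lifr under 13 of 17, and Il6r, Il11ra1 and Cntfr passed under none. At an adjusted p under 0.01, 1 receptor chain passed in place of 3, with 296 probe sets higher and 563 lower in all, and the lists counted 0 ligands, 3 type 1 chains and 0 type 2 chains. The one-way test called 1483 higher and 2467 lower without adjustment, with 4 shedding genes, and 376 and 675 with it, with 0 ligands, 1 type 2 chain and 3 proximal genes. eBayes with trend and robust called 10 proximal and 4 shedding genes, and array weights called 4 shedding genes. The filter on dim probe sets called 1 ligand and 4 shedding genes, and the table of all probe sets 1 ligand. In total these 4 runs called 2872, 3109, 2779 and 1973 probe sets, in that order, against 2268 in the main test. Another round of quantile normalization and centring on the median each called 2 shedding genes, with 2065 and 2244 probe sets called in total.

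With 1 sample left out, the calls over all probe sets were 417 to 873 higher and 803 to 1810 lower. The receptor chains counted 1 to 3 higher and 0 lower, ligands 1 to 3, type 1 chains 4 to 6, type 2 chains 0 to 2, proximal genes 4 to 8 and shedding genes 1 to 4. Osmr minus Lifr stayed at 0.55 to 0.63, Osmr minus Il6st at 0.64 to 0.68 and Il6st minus Lifr at -0.09 to -0.04.

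Same-numbered samples correlated at -0.03, 0.05 and -0.29 in their deviations from the group means, so the numbers were not taken as pairs. With the replicate block 490 probe sets were higher and 1010 lower, and 2 receptor chains were higher, without Il6st (adjusted p = 0.0833, limma). With the block, the exact p of each of the 3 differences between chains was 0.25, the smallest that 3 pairs allow. The cause of these losses was not tested. The number of arrays, 3 per group, limits the precision.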

Other observations

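Most genes beside the receptor chains on the chromosome did not pass the test. Of 37 coding genes within 4 places of a member in the RefSeq order, 26 had a probe set, and 3 rose, 1 fell and 22 did not pass, near the 14.7% called over all genes. Beyond Ccl27, the genes that passed were the lipid phosphatase gene Plpp1 near Il6st (a log2 rise of 0.31, limma adjusted p = 0.00974), and Nup155 (0.23, adjusted p = 0.0365) and Wdr70 (-0.21, adjusted p = 0.0338 from limma), both near Lifr. Egflam, the next coding gene after Lifr on the side away from Osmr, had a log2 fold change of -0.004 (adjusted p = 0.975 from limma). These neighbours were chosen after the values of the members were seen.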
